A study of Mus musculus with 18 samples.

Results

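The AP-1 and BATF transcription factors described here are 10 genes, Fos, Fosb, Fosl2, Jun, Junb, Jund, Batf, Batf3, Maff and Bach1, among the 46078 genes of the deposited count tables. They were taken by name, with earlier results of these data known. The libraries are bulk RNA sequencing of Tregs (regulatory T cells), CD4 T cells defined by the factor Foxp3 that hold back immune responses and help damaged tissue to heal. All groups were male Foxp3(DTR/GFP) mice aged 10 weeks, so the allele carrying the diphtheria toxin receptor and green fluorescent protein was present in controls and injured animals alike. The 5 groups were Tregs of uninjured spleen (6 libraries), and of a skull bone defect, a quadriceps muscle loss, full-thickness skin wounds and a left coronary artery infarct of the heart, each on day 7 after injury (3 libraries a tissue, every library pooled from 3 mice). Whether spleen libraries were pooled is not stated. Neither uninjured bone, muscle, skin or heart nor spleen of injured mice was analysed here, so the effect of an injury and that of its tissue cannot be told apart. Spleen is the reference wherever a gene is said to have risen or fallen.

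AP-1 is a dimer of basic leucine zipper proteins. FOS family proteins (Fos, Fosb, Fosl1, Fosl2) pair with JUN family proteins (Jun, Junb, Jund) and bind short sites that match TGANTCA or a similar sequence with 1 more base. Most of these genes are immediate early genes: T cell receptor signals and stress kinases switch them on within minutes, and handling of cells during sorting can do so too. BATF and BATF3 also pair with JUN proteins but lack a domain for activating transcription, and in T cells they bind composite sites together with IRF4. BATF is required for the formation of Tregs in non-lymphoid tissues. MAFF is a small MAF protein, and BACH1 is a haem-sensing repressor that pairs with small MAF proteins and competes with NRF2 at genes of the oxidative stress response.

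Libraries held 5970346 to 22635760 counts. Library names followed 2 styles: the Endo style in spleen replicates 1 to 3, heart replicate 1 and all skin libraries, and the Tregs style elsewhere. The style was a term of the test, and whether it marks a processing batch is not stated. Spleen replicates 1 and 2 stood apart in ribosomal RNA, with 6.73% and 7.18% of counts against 0.450% to 2.90% in the other libraries. Foxp3 was at 343 to 444 CPM (counts scaled to library size, with TMM factors) in spleen and at 586 to 836 CPM in the injured tissues, and Cd4 and Cd3e were present in all groups. Sums over marker lists of other cells were 8.57 to 68.7 CPM over 8 macrophage genes, 6.31 to 85.2 CPM over 6 B cell genes and 0 to 106 CPM over 6 fibroblast genes. The sum over 5 endothelial genes was 129 to 164 CPM in spleen and lowest in skin, at 59.1 to 64.4 CPM. Most of it was Pecam1, and Cldn5 of that list was at 0 in every library. The sum over 5 skeletal muscle genes reached 74.5 CPM in muscle. B cell genes were highest in spleen (34.2 to 85.2 CPM) and bone (43.0 to 60.3 CPM) and lowest in muscle (6.31 to 10.9 CPM). The keratinocyte gene Krt14 was at 0 outside skin and reached 3.06 CPM there, and the osteoblast gene Bglap was at 0 in every library. The part of such cells in the results below was not tested, and in bulk samples fewer cells of a type and less RNA per cell cannot be told apart.

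The 250 bases before the RefSeq start (GRCm38.p6) of Fos, Junb and Jun are shown because the levels of these genes moved in different directions. Each of these windows lies before the annotated gene. Capitals mark matches to the motifs searched on both strands: the AP-1 site TGANTCA, the CRE site TGACGTCA, the JUN-type site TGACATCA, the serum response element CArG box and the NF-kB site.
Fos, chr12:85473640-85473889, plus strand: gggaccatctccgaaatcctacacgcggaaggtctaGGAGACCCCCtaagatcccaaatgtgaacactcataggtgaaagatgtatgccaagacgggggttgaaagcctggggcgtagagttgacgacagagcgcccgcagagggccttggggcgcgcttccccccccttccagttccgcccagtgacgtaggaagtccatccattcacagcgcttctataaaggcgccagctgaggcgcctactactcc
Junb, chr8:84978749-84978998, minus strand: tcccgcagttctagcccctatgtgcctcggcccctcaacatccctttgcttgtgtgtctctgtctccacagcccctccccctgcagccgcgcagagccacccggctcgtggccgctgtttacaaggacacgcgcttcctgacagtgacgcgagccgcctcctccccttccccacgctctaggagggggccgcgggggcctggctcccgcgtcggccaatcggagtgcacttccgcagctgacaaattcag
Jun, chr4:95052223-95052472, minus strand: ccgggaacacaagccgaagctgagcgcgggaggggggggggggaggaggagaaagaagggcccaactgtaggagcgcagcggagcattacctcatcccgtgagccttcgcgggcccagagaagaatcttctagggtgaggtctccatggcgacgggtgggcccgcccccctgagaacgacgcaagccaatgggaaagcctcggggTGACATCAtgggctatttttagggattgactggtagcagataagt

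The Jun window held TGACATCA 45 to 38 bases before the start, a motif found in 2.93% of 32851 mouse promoter windows of that length. The Fos window held 1 NF-kB match, 214 to 205 bases before the start, a motif found in 3.90% of windows. No motif searched was found in the Junb window. All 10 members had a RefSeq entry, with 12 start sites. Not all of these starts match the start of the annotated gene. The Fosl2 and Batf3 windows lay inside the gene, and the Jund window ended at 70697738, before a gene start of 70698949. TGANTCA was in no member's window and in 6.75% of all windows. NF-kB matches were in the windows of 4 members, Fos, Fosb, Fosl2 and Maff. TGACGTCA was in 1 member, Maff, against 1.55% of all windows, and TGACATCA in 2 members, Jun and Maff. CArG matches were in no member's window and in 1.47% of all windows. Bases farther upstream were not searched, so the absence of a match holds for these windows only. These matches are letters in a window and were not tested as binding sites.

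Against spleen, the AP-1 and BATF genes did not move as a block. Fosl2 and Jund rose in all 4 injured tissues, Junb and Batf rose in muscle, skin and heart, Fos rose in skin, and Jun fell in muscle and skin. Fosb, Maff and Bach1 passed the test in no tissue, and Batf3 was counted in injured tissues only. In edgeR's quasi-likelihood test adjusted over all genes (FDR 0.05), 2 of 10 members rose and 0 fell in bone, 4 rose and 1 fell in muscle, and 5 rose and 1 fell in skin. In heart 4 of 9 tested members rose and 0 fell. Over all genes tested, the share called was 14.8% in bone, 20.3% in heart, 25.5% in muscle and 27.8% in skin. The median log2 fold change of the members was 0.44 in bone, 0.81 in muscle, 0.92 in heart and 1.31 in skin, against 0.01, -0.01, -0.03 and -0.07 over all genes tested. The 4 comparisons share their spleen libraries. Because the members were chosen with earlier results of these data known, their contrast with all genes is no independent evidence.

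**Figure D1:**
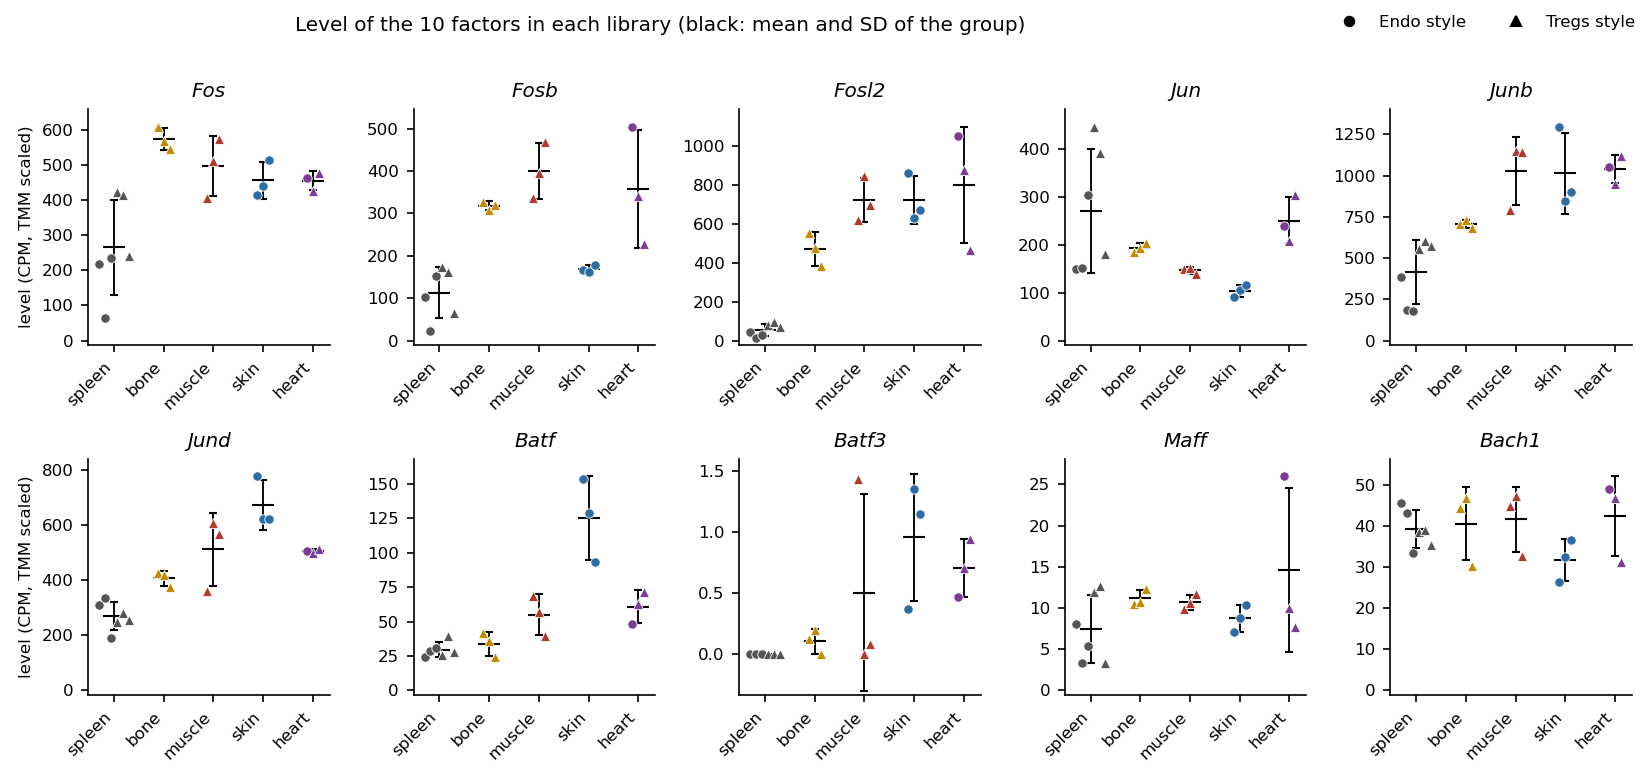
Level of each of the 10 genes (CPM, TMM scaled, linear axes that differ between panels) in every library by group, with circles for Endo style and triangles for Tregs style and the mean and SD in black. Fosl2 was below 94 CPM in every spleen library and above 380 CPM in every injured-tissue library, and Batf was highest in skin.

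Fosl2 (ENSMUSG00000029135, chromosome 5, 32135801 to 32157842, plus strand, GRCm38) encodes FRA-2, a FOS family protein whose transcript is usually more lasting than that of Fos. Its spleen levels were lowest at 13.7, with a median of 55.4 and a highest value of 93.3 CPM. It was at 553, 474 and 382 CPM in bone, 621, 843 and 696 in muscle, 1053, 877 and 468 in heart and 863, 630.3 and 671 in skin. No injured-tissue library overlapped the spleen range. Fosl2 rose 5.77-fold in bone (log2 fold change 2.53 ± 0.29 SE, adjusted p = 1.7e-05, edgeR), 8.87-fold in muscle (3.15 ± 0.30, 1.2e-06), 16.0-fold in heart (4.00 ± 0.52, 0.0015) and 24.8-fold in skin (4.63 ± 0.32, 3.1e-08). These 4 calls held in every alternative tried. Their size moved between alternatives, the log2 fold change being 3.06 in heart without heart replicate 1, and 3.69 in skin without the style term. Spleen libraries stood at 28.6 ± 14.8 CPM (SD, n = 3) in the Endo style and at 80.2 ± 12.8 (n = 3) in the Tregs style.

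Fos (ENSMUSG00000021250, chromosome 12, 85473890 to 85477273, plus strand) is the founding immediate early gene of the family. In spleen it ran from 63.1 to 423 CPM with a median of 239 CPM, a 6.70-fold range. It was at 610, 568 and 547 CPM in bone, 405, 511 and 574 in muscle, 465, 427 and 477 in heart and 414, 440.4 and 515 in skin. Bone and heart lay wholly above the spleen range, while muscle and skin overlapped it. Only skin passed for Fos (log2 fold change 1.38 ± 0.39, adjusted p = 0.020). That call was lost without skin replicate 2 or 3, without the style term (0.75, adjusted p = 0.18) and with a block for replicate number in its place. Fos did not pass in bone (0.66 ± 0.38, adjusted p = 0.31), muscle (0.45 ± 0.38, 0.44) or heart (0.78 ± 0.41, 0.24). With Tregs-style libraries only, bone passed as well (0.68, adjusted p = 0.017). With the replicate block, Fos passed in muscle and heart. That block leaves only the Endo-style spleen libraries as the reference, while muscle and most heart libraries are of the Tregs style.

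Fosb (ENSMUSG00000003545, chromosome 7, 19302696 to 19310051, minus strand), another early response gene, ran in spleen from 23.2 to 174 CPM with a median of 127 CPM, a 7.50-fold range. It was at 328, 308 and 319 CPM in bone, 336, 396 and 468 in muscle and 505, 340.3 and 227 in heart, all above the spleen range, but at 166, 163 and 179 in skin, within or just above it. No call was made: the log2 fold change was 1.23 ± 0.53 in bone (adjusted p = 0.16), 1.57 ± 0.53 in muscle (0.053), 0.84 ± 0.53 in skin (0.28) and 1.66 ± 0.61 in heart (0.11). In muscle 10 of 21 alternatives passed, among them muscle against Tregs-style spleen alone (1.58, adjusted p = 0.011).

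Jun (ENSMUSG00000052684, chromosome 4, 95049034 to 95052222, minus strand), which encodes c-Jun, the JUN protein most tied to stress kinase signals, was the only member that fell. Its spleen levels ran from 149 to 447 CPM with a median of 242 CPM. It was at 186, 193 and 204 CPM in bone, 150.1, 151 and 139 in muscle, 240, 207 and 304 in heart and 91.2, 105 and 117 in skin. Skin lay wholly below the spleen range, 2 of 3 muscle libraries lay inside it, and so did all of bone and heart. Jun fell in muscle (log2 fold change -1.23 ± 0.31, adjusted p = 0.0093) and skin (-0.97 ± 0.31, adjusted p = 0.031), and did not pass in bone (-0.83 ± 0.30, 0.09) or heart (-0.15 ± 0.33, 0.80). The skin call was lost without any 1 skin library, without spleen replicate 3 and with limma-voom (adjusted p up to 0.14). The muscle call was lost in 1 alternative, with a block for replicate number in place of the style term (-0.41, adjusted p = 0.15, edgeR). That block sets Tregs-style muscle against Endo-style spleen alone. Jun was at 201 ± 89 CPM in Endo-style and 340 ± 141 in Tregs-style spleen (SD, n = 3 each).

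Junb (ENSMUSG00000052837, chromosome 8, 84974484 to 84978718, minus strand) encodes a JUN protein that pairs with BATF in T cells. In spleen it ran from 179.8 to 606 CPM with a median of 470.0 CPM. It was at 708, 729.7 and 684 CPM in bone, 792, 1147 and 1143 in muscle, 1050, 951 and 1118 in heart and 1297, 846 and 899 in skin, with no overlap with spleen. Junb rose in muscle (log2 fold change 0.81 ± 0.24, adjusted p = 0.017), skin (2.00 ± 0.25, 6.2e-06) and heart (1.35 ± 0.27, 0.0041), but not in bone (0.27 ± 0.24, 0.52). The muscle call depended on spleen replicate 4 and muscle replicates 2 and 3 (adjusted p up to 0.071 with any 1 left out), and the heart call on heart replicate 1 (0.84 without it, adjusted p = 0.055). Without the style term the skin value was 1.27.

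Jund (ENSMUSG00000071076, chromosome 8, 70698949 to 70700616, plus strand) is the JUN gene with the steadiest expression in resting cells. It was at 188 to 336 CPM in spleen with a median of 268 CPM, 424, 417 and 376 in bone, 360.2, 608 and 566 in muscle, 506, 498 and 513 in heart and 777, 621 and 621 in skin, all above the spleen range. Jund rose in bone (log2 fold change 0.61 ± 0.19, adjusted p = 0.033), muscle (0.95 ± 0.19, 0.00078), skin (1.25 ± 0.19, 3.2e-05) and heart (0.91 ± 0.17, 0.0015). The bone call was lost without any 1 bone library or Tregs-style spleen library (adjusted p up to 0.099), and the skin value was 1.85 without spleen replicates 1 and 2. Jun, Junb and Jund each overlap a gene on the opposite strand, and the strand setting of the counting is not given in the sources used here. Over 18 libraries the partners held 386 counts (Junos), 12991 (Prdx2) and 1270 (Gm11175), against 48783, 179332 and 98756 of the members.

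**Figure D2:**
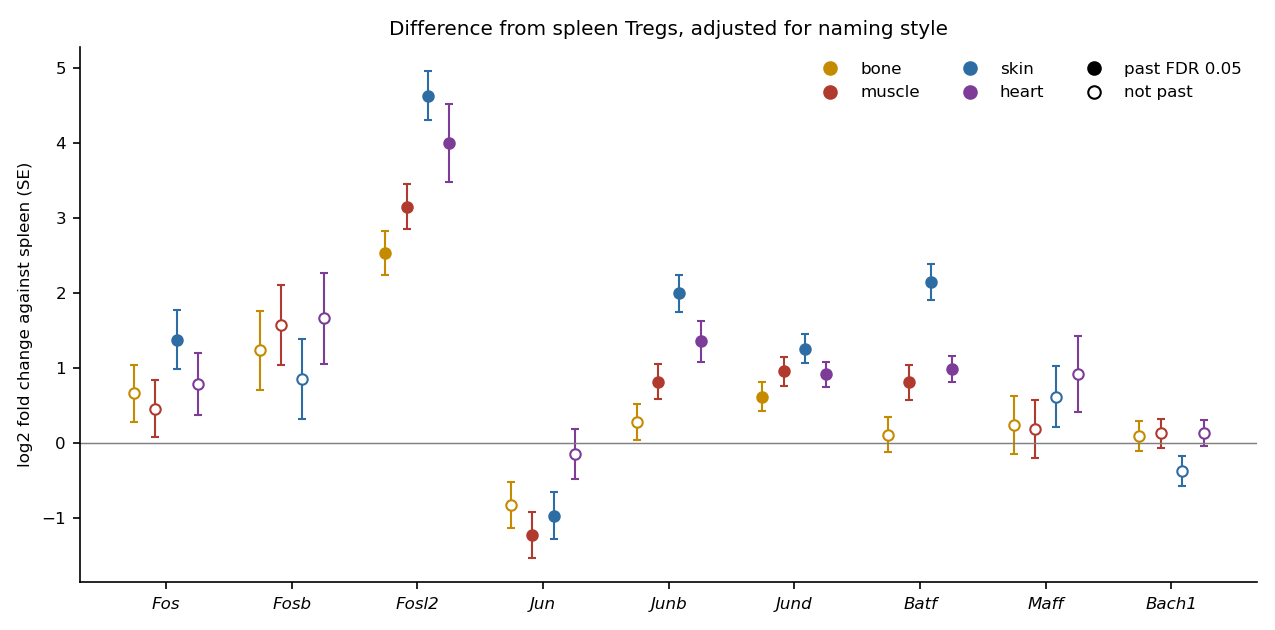
Log2 fold change against spleen with its SE, adjusted for naming style, for the 9 members other than Batf3 in bone, muscle, skin and heart, with filled circles past FDR 0.05 and open ones not. Fosl2 lay at 2.53 to 4.63, and Jun was the only member below 0 in all 4 tissues.

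Levels divided by exon length let the members of a family be compared. In spleen the order per kilobase was Junb (179.9 ± 84.3 CPM per kb), Jund (162 ± 31.2), Fos (113 ± 57.5), Jun (84.8 ± 40.7), Batf (21.0 ± 3.8), Fosb (18.1 ± 9.67), Bach1, Fosl2 (5.62 ± 3.19), Maff and Batf3. Fosl2 stood at 48.5 ± 8.9 CPM per kb in bone and 74.4 ± 11.7 in muscle, where it was above Jun (46.0 ± 2.1). It was above Jun in skin too (74.5 ± 12.9 against 32.7 ± 4.0). In heart the 2 means were close (82.6 ± 31.0 for Fosl2 and 78.5 ± 15.5 for Jun). Fos made 82.5% ± 2.3 (SD, n = 6) of FOS family RNA per length in spleen, 70.7% ± 1.1 in bone, 60.2% ± 1.9 in muscle, 59.0% ± 10.2 in heart and 65.4% ± 4.7 in skin (n = 3 each). Fosl2 made 4.14% ± 1.14 in spleen and 13.95% ± 1.62, 21.4% ± 2.7, 24.2% ± 6.4 and 25.2% ± 4.6 in the same order of tissues. Its share was at most 5.84% in any spleen library and at least 12.2% in any other. The share of Jun in JUN family RNA was 20.04% ± 8.73 in spleen and 9.98% ± 0.83, 5.97% ± 1.55, 9.37% ± 1.23 and 3.85% ± 1.00 in that order. The summed FOS family level was 137 ± 69 CPM per kb in spleen and 297 to 350.4 in the means of the tissues, and that of the JUN family 427 ± 108 and 612 to 877. These shares describe the libraries and were not tested.

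Ordered by group mean, the members gave different sequences of tissues, in which each group was compared with the next one down only. For Fosl2 and Junb, the 3 highest (heart, skin and muscle) lay within the larger SD of the next, and the steps down to bone and then to spleen were larger than it. For Fos, each step from bone through muscle and skin to heart was within the SD, although bone lay above heart and skin without overlap, and the step from heart to spleen was larger. For Fosb, the steps from muscle to heart and from heart to bone were within the SD of heart, although muscle lay above bone without overlap, and the step from bone to skin was larger than the SD. For Jun, spleen and heart were within the SD, and the steps from heart to bone, muscle and skin were each larger than the SD of the 2 groups compared. For Jund, the steps from skin to muscle, from heart to bone and from bone to spleen were larger than the SD, and muscle and heart were within it, with muscle spread widely enough to overlap bone. For Batf, skin stood above heart by more than the SD and without overlap, and heart and muscle were within the SD, as were bone and spleen.

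**Figure D3:**
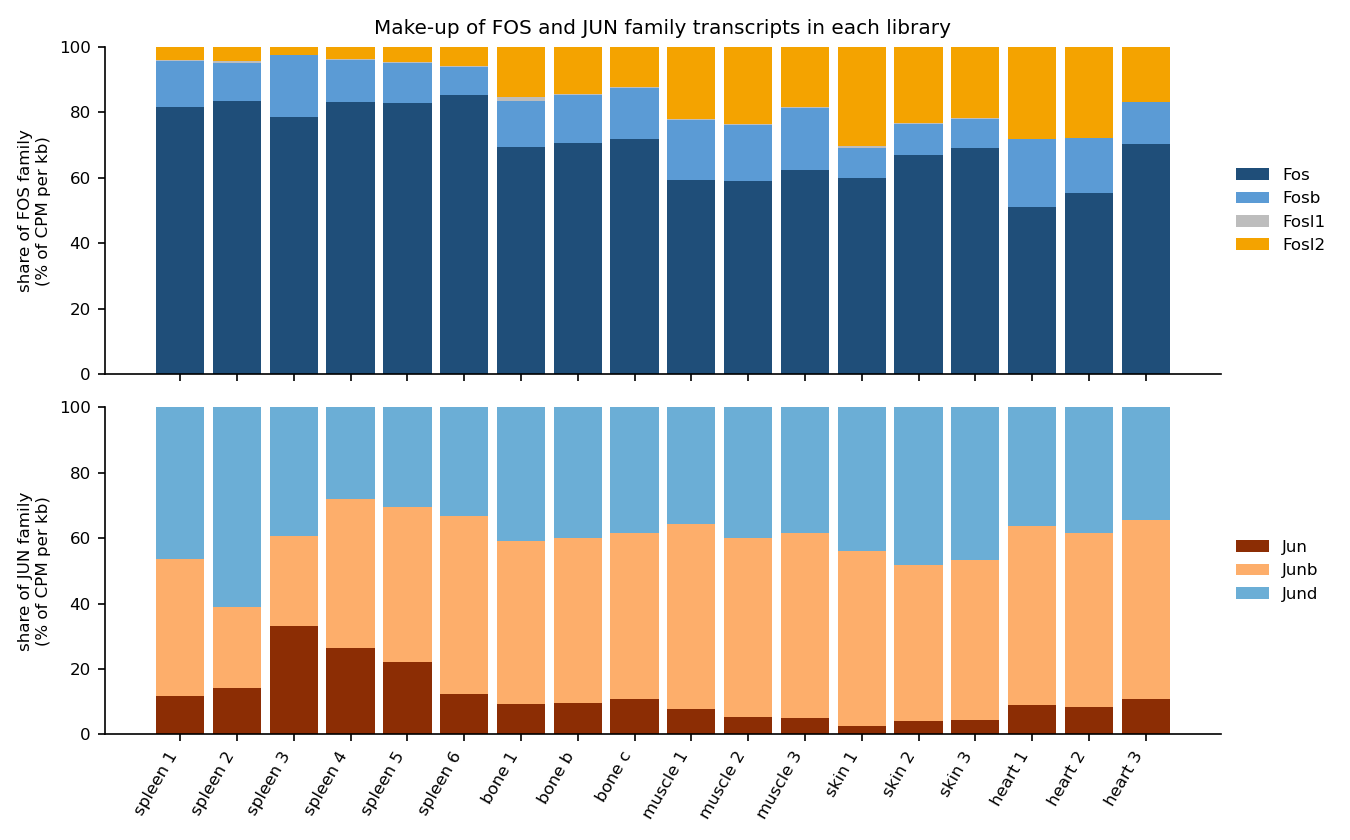
Share of each gene in the summed FOS family (top) and JUN family (bottom) level, in percent of CPM per kb of exon length, in each of 18 libraries. The share of Fosl2 was 2.34% to 5.84% in spleen and 12.2% to 30.4% in the other libraries, and that of Jun was 11.7% to 33.2% in spleen and 2.70% to 10.9% in the others.

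Batf (ENSMUSG00000034266, chromosome 12, 85686669 to 85709087, plus strand) was the member called in the most comparisons between injured tissues. It was at 24.2 to 39.4 CPM in spleen with a median of 28.5 CPM, and at 28.0 ± 3.4 CPM in the Endo and 31.1 ± 7.3 CPM in the Tregs style of spleen (n = 3 each). It was at 41.7, 35.6 and 24.0 CPM in bone, 68.7, 57.0 and 39.2 in muscle, 48.1, 62.9 and 71.6 in heart and 154, 129 and 93.2 in skin. Skin and heart lay above every spleen library, bone overlapped the spleen range, and 1 muscle library lay inside it. Batf rose 4.40-fold in skin (log2 fold change 2.14 ± 0.24, adjusted p = 5.6e-07), and also in heart (0.98 ± 0.17, 0.0012) and muscle (0.80 ± 0.23, 0.013). It did not pass in bone (0.11 ± 0.23, adjusted p = 0.83). The muscle call was lost without muscle replicate 1 or spleen replicate 4 (adjusted p up to 0.074), while the skin and heart calls held in every alternative.

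Batf3 (ENSMUSG00000026630, chromosome 1, 191097847 to 191108945, plus strand), known above all from dendritic cells, had 77 counts over all libraries and 0 in the 6 spleen libraries. Bone held 8 counts over its 3 libraries, muscle 18, of which 17 were in 1 library, skin 25 and heart 26. Set against a floor of 3 counts over the spleen group, the pooled level was 2.77-fold higher in bone, 10.4-fold in muscle, 15.5-fold in heart and 19.5-fold in skin. The floor allows for counting error in spleen only. It does not cover counting error in the injured tissues or the spread between libraries. The test made no call, and against spleen in heart the gene did not pass the count filter. The 6 dendritic cell marker genes summed to 3.47 to 93.2 CPM in spleen libraries, 37.5 to 76.1 in those of bone, 35.1 to 57.7 in muscle, 16.0 to 33.3 in heart and 32.9 to 57.6 in skin, and their part in the Batf3 counts was not tested.

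Maff (ENSMUSG00000042622, chromosome 15, 79346621 to 79359076, plus strand) was a low gene, at 3.29 to 12.6 CPM in spleen libraries, 7.10 to 10.3 in skin, 9.84 to 11.7 in muscle and 10.5 to 12.3 in bone. In heart it was at 26.0, 9.98 and 7.71 CPM, the highest value being that of replicate 1, the library that was also highest of the 3 heart libraries for Fosl2 and Fosb. Bach1 (ENSMUSG00000025612, chromosome 16, 87698945 to 87733346, plus strand) stayed in a narrow band, at 33.5 to 45.7 CPM in spleen and 26.5 to 49.0 CPM over all other libraries. Neither gene passed against spleen. The log2 fold change of Bach1 was 0.09 ± 0.19 in bone, 0.12 ± 0.20 in muscle, -0.38 ± 0.20 in skin (adjusted p = 0.17) and 0.13 ± 0.17 in heart, and that of Maff was 0.92 ± 0.51 in heart (adjusted p = 0.23) and -0.08 there without heart replicate 1 (adjusted p = 0.94).

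Direct comparisons of the injured tissues showed where the members differed from tissue to tissue. Batf was higher in skin than in bone (log2 fold change 2.03 ± 0.33, adjusted p = 0.00062), muscle (1.34 ± 0.33, 0.048) and heart (heart minus skin -1.23 ± 0.27, 0.011), and higher in heart than in bone (0.92 ± 0.23, 0.020). Skin also exceeded bone in Fosl2 (2.10 ± 0.40, 0.0049) and Junb (1.72 ± 0.34, 0.0043). These were all the calls among 10 members in 6 comparisons: 3 in skin against bone, where 8.11% of all genes were called, 1 in skin against muscle (1.31% of genes), 1 in heart against bone (6.68%) and 1 in heart against skin (2.38%). No member was called in muscle against bone (4.86% of genes) or heart against muscle (0.452%). DESeq2 called 1 member in each of these 2 comparisons. The shares above are those of edgeR, and the share of all genes that DESeq2 called there is not given. At an unadjusted p under 0.05 the edgeR test held 3171 and 1551 of all genes there.

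The calls of Fosl2 and Junb between skin and bone were lost without the naming style term, and that of Batf was kept. Skin libraries were all of the Endo style and bone and muscle libraries all of the Tregs style, so that spleen alone tied the styles together. As measured, Fosl2 was at 721 ± 124 CPM in skin and 470 ± 86 in bone, and Junb at 1014 ± 247 and 707 ± 23. Without the style term the log2 fold change was 0.62 for Fosl2 (adjusted p = 0.44) and 0.52 for Junb (0.43), and for Batf 1.89 (2.4e-05). In 1 fit to all 18 libraries Fosl2 did not pass either (1.36, adjusted p = 0.20). Within the Tregs style, heart replicates 2 and 3 exceeded bone in Batf (0.98, adjusted p = 0.019) and Junb (0.54, 0.040). Within the Endo style, heart replicate 1 alone stood against skin, with a Batf difference of -1.37 (adjusted p = 0.022) that assumes this library varies like the others. Within the Tregs style, muscle exceeded bone in Fosl2 (0.61, adjusted p = 0.029) and Junb (0.53, 0.030). The Batf difference between skin and muscle was lost without any 1 of 7 libraries (spleen 1, 2 or 5, muscle 2 or 3, skin 1 or 2; adjusted p up to 0.13), without spleen 1 and 2 together (0.27), with limma-voom (0.12) and with upper-quartile scaling (0.052). That between heart and bone was lost without bone b or c or heart 2 or 3 (up to 0.11), and that between heart and skin without skin 1 or heart 1 (up to 0.15).

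**Figure D4:**
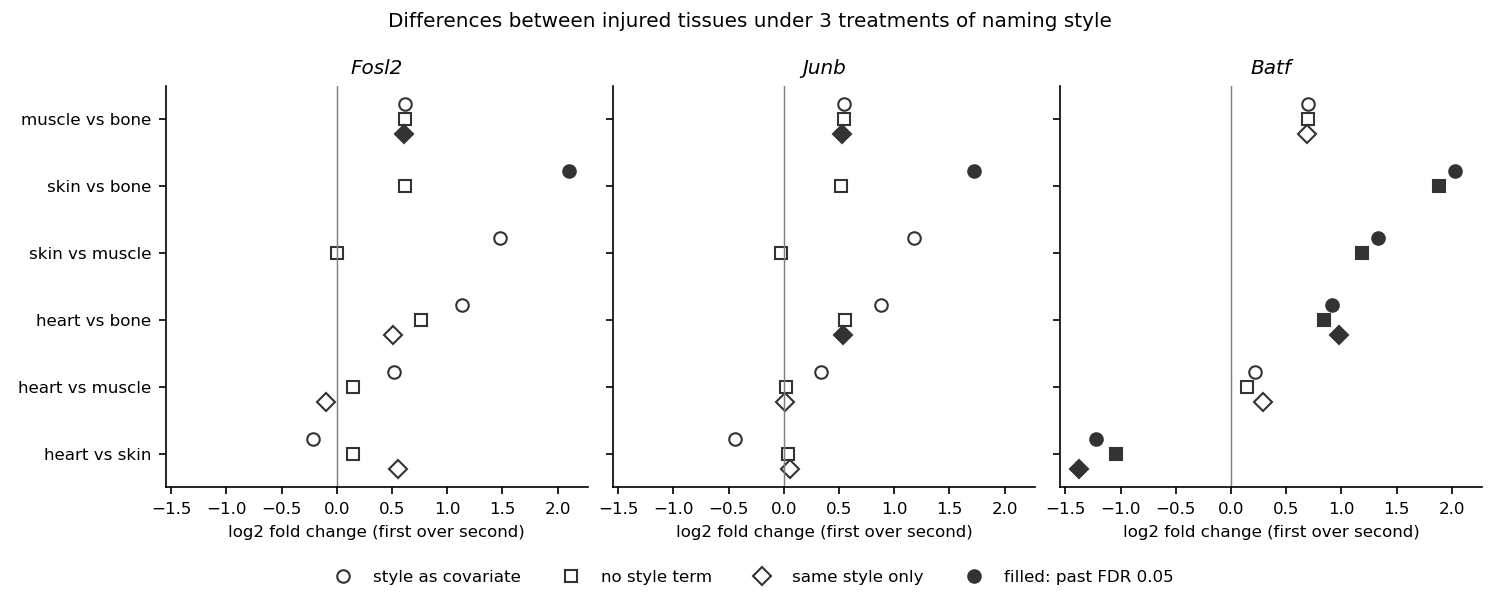
Log2 fold change of Fosl2, Junb and Batf in the 6 comparisons between injured tissues, with the style as a covariate (circles), without a style term (squares) and within 1 style (diamonds, where both tissues had libraries of a shared style); filled symbols are past FDR 0.05. The skin against bone values of Fosl2 move from 2.10 to 0.62 without the style term, and those of Batf from 2.03 to 1.89.

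Within spleen, where both styles come from uninjured Tregs, Fos, Fosl2 and Junb were lower in every Endo-style than in every Tregs-style library, with log2 differences (Endo minus Tregs) of -1.06 ± 0.53 (adjusted p = 0.34), -1.49 ± 0.35 (0.088) and -1.21 ± 0.27 (0.067). No member passed in that comparison, in which 0.642% of all genes were called and 2743 genes had an unadjusted p under 0.05. The difference was 0.08 ± 0.20 for Jund, -0.15 ± 0.21 for Batf and 0.11 ± 0.17 for Bach1. Leaving out spleen replicate 1 called 2 members, Fosl2 and Junb.

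Other basic leucine zipper genes, listed by family with earlier results of these data known, moved in both directions. Of 12 other AP-1, BATF and ATF genes, 5 of 11 tested rose in bone and 0 fell, 4 rose and 1 fell in muscle, 5 of 10 tested rose and 1 fell in heart, and 5 rose and 1 fell in skin. Their median log2 fold change was 0.09, 0.55, 0.56 and 1.00 in that order. Beside the counts of this list and those below, the share called over all genes was 14.8% in bone, 25.5% in muscle, 20.3% in heart and 27.8% in skin. Whether any list differed from that share was not tested. The 4 genes of this list that rose in every tissue were Jdp2, Atf3, Atf6 and Crem. Crem, a cyclic AMP response factor, went from 42.8 ± 11.7 CPM in spleen to 253 ± 43 in bone, 379 ± 43 in muscle, 456 ± 136 in heart and 647 ± 54 in skin. Its log2 fold change was 2.34 ± 0.19 in bone and 4.13 ± 0.21 in skin (adjusted p = 1.2e-08 and 1.8e-12). Jdp2, a JUN dimerization partner that represses AP-1 sites, was highest in heart (43.6 ± 5.4 CPM, log2 fold change 4.05 ± 0.31) against 2.49 ± 1.18 CPM in spleen. Atf3, a stress-induced factor that pairs with JUN proteins, rose from 1.89 ± 2.27 CPM to 15.5 ± 3.5 in skin and 32.4 ± 13.3 in heart. Fosl1, the remaining FOS gene, was below 1.17 CPM in every spleen library and rose to 4.13 ± 3.28 CPM in bone (log2 fold change 2.88 ± 0.90, adjusted p = 0.032).

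Several relatives of Maff and Bach1 passed the test. Of 9 other MAF and CNC genes, 8 were tested: 2 rose and 1 fell in bone and in muscle, 3 rose and 2 fell in skin, and 2 rose and 3 fell in heart. Bach2, a repressor that keeps T cells in a resting state, fell in all 4 tissues, from 142 ± 13 CPM in spleen to 50.5 ± 1.2 in bone, 12.9 ± 5.2 in muscle, 35.3 ± 7.8 in heart and 4.93 ± 2.97 in skin. Its log2 fold change was -1.54 ± 0.27 in bone and -4.85 ± 0.33 in skin (adjusted p = 0.00065 and 6.5e-09). Mafg, a small MAF partner of BACH proteins, rose in all 4 tissues, with log2 fold changes of 0.93 ± 0.22 in bone, 0.95 ± 0.22 in muscle, 1.07 ± 0.23 in heart and 1.06 ± 0.23 in skin, as did Maf. Nfe2l2, which encodes NRF2, passed in skin alone (0.51 ± 0.19, adjusted p = 0.042).

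Among 13 genes known as BACH1 and NRF2 targets, 3 rose and 2 fell of 12 tested in bone, 5 and 2 in muscle, 6 and 1 in skin, and 4 and 1 of 11 tested in heart. Srxn1, an antioxidant enzyme gene, rose in all tissues, from 3.01 ± 0.91 CPM to 20.4 ± 6.9 in bone, 19.2 ± 8.5 in muscle, 20.1 ± 5.4 in heart and 28.8 ± 2.9 in skin. Hmox1, the haem oxygenase gene that is the best known BACH1 target, fell in bone (log2 fold change -1.65 ± 0.48, adjusted p = 0.021) and muscle (-2.02 ± 0.49, 0.0039), at 8.89 ± 3.62 CPM in spleen and 3.10 ± 1.66 and 2.42 ± 0.55 in these tissues. The iron exporter gene Slc40a1, also active in macrophages, fell from 8.97 ± 3.75 CPM in spleen to 0.55 ± 0.49 in bone and had 0 counts in heart. Me1, the malic enzyme gene, was at 0.02 ± 0.05 CPM in spleen and 1.84 ± 0.59 in muscle.

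Genes that bind DNA beside AP-1 and BATF gave 3 higher and 1 lower of 12 in bone, 3 and 2 in muscle, 4 and 1 in skin, and 3 and 2 in heart. Irf4, the partner of BATF at composite sites, rose in every tissue, from 82.6 ± 19.3 CPM to 177 ± 17 in bone, 217 ± 33 in muscle, 200.2 ± 18 in heart and 259 ± 11 in skin (log2 fold change 0.91 ± 0.16, 1.21 ± 0.16, 1.25 ± 0.16 and 1.82 ± 0.17). Stat3 rose in every tissue too (0.88 ± 0.13, 1.17 ± 0.13, 1.33 ± 0.17 and 1.40 ± 0.13 in the same order). Nfatc1, a partner of FOS and JUN proteins, fell in muscle, skin and heart, with a log2 fold change of -0.85 ± 0.14 in skin (adjusted p = 5.9e-05).

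Most genes of the MAP kinase cascade did not pass. Of 17 tested, 5 rose and 0 fell in bone, 5 rose and 1 fell in muscle and in skin, and 3 rose and 1 fell in heart. Map2k3, a kinase that activates p38, rose most: from 32.5 ± 6.5 CPM to 92.8 ± 12.6 in bone, 131 ± 5 in muscle, 118 ± 28 in heart and 156 ± 23 in skin. Elk4, a partner of serum response factor at the FOS promoter, fell in muscle (log2 fold change -1.01 ± 0.14), skin (-1.37 ± 0.14) and heart (-1.02 ± 0.14).

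All 15 genes tied to BATF in tissue Tregs rose in all 4 tissues, with median log2 fold changes of 1.81 in bone, 2.55 in muscle, 2.53 in heart and 3.26 in skin. That list was chosen with results of these samples known, so its direction is no independent evidence. Il1rl1, the interleukin-33 receptor gene, rose 14.1-fold in bone, the tissue in which Batf itself did not pass, and 17.7-fold in skin.

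Immediate early genes and genes known to respond to tissue dissociation did not move one way. Of 23 tested, 5 rose and 2 fell in bone, 6 and 4 in muscle, 8 and 6 in skin, and 8 and 3 in heart, with median log2 fold changes of 0.15, -0.10, 0.42 and 0.49. Nr4a1, an early gene of T cell receptor signals, rose from 172 ± 81 CPM to 670.3 ± 43.5 in bone, 1174 ± 311 in muscle, 1089 ± 79 in heart and 765 ± 50 in skin. Egr2 fell in bone, muscle and skin, with a log2 fold change of -2.61 ± 0.34 in skin (adjusted p = 2.5e-06). The summed level of the list was 2894 to 6034 CPM in spleen and 5054 to 7262 CPM in the other libraries. The part of cell handling in the levels of Fos, Fosb, Jun and Junb was not tested.

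The genes whose levels followed each member most closely were taken by Pearson's r of log2 CPM over 18 libraries among 7327 protein-coding genes, as a description. The libraries share the split between spleen and injured tissue, which alone can give a high r. For Fosl2 they were Cdkn1a (r = 0.982), Errfi1 (0.982) and Nr4a3 (0.981). For Junb they were Tnfaip3 (0.955), Nfkbia (0.950) and Tgif1 (0.946), and Tnfaip3, a brake on NF-kB signals, was also near Fos (0.883), after Iqgap2 (0.887) and before Klf4 (0.882). Fosb was closest to Nr4a2 (0.924), Zeb2 (0.914) and Sik1 (0.910), Jund to Actg1 (0.958), Gnb1 (0.957) and Sqstm1 (0.952), and Batf to Ghitm (0.941), Myl12a (0.936) and Acot9 (0.922). Jun followed Atp11a (0.877), Gnptab (0.875) and Mllt3 (0.869). Maff was closest to Paf1 (0.884), and Bach1 to Rbm4b (0.828) and then Vamp2 (0.731).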

How the data were processed

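RNA of sorted Tregs was sequenced in 18 libraries made from 1 ng of RNA with the Ovation Solo kit, per the labels. Values deposited per gene are raw counts, for which the submitters' processing notes name STAR, featureCounts, limma and GRCm38. Not given in the sources used here are the annotation, the strand setting and how molecular identifiers were treated. Both tables share 6 identical spleen columns and were joined by gene ID. The columns of bone libraries b and c could be tied to the group only.

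Counts were filtered by filterByExpr, scaled by TMM and tested in edgeR 4.0.16 (R 4.3.3, robust quasi-likelihood F test) on group and naming style, with Benjamini-Hochberg adjustment at FDR 0.05. Fits used 15 libraries for bone, muscle, skin and spleen, 9 for heart against spleen and 18 for heart against other tissues. SE were derived from the F statistic, and the code was tested on simulated counts. Levels are CPM (mean ± SD), with a prior count of 2 where log2 was taken. Lengths and positions came from GENCODE M21 (GRCm38). P-values measure only how libraries spread, and replicates differed by 10.9 to 157 times counting noise (chi-square per degree of freedom). The largest value was between spleen replicates 1 and 6, which differ in naming style. Pairs of the same style reached at most 64.7.

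The members, and the gene lists, were chosen with earlier results of these data known. Named genes were all 10 members, the 3 largest called changes of each pathway list in a comparison, list members whose level stands beside a result, and the 3 genes most like each member above a floor of 3 in mean log2 CPM. Alternatives varied the style term, the replicate block, the scaling (RLE, upper quartile), the tool (DESeq2 1.42.0, limma-voom 3.58.1), the filter (none, or CPM above 1 in 3 libraries), small noncoding RNA genes and the libraries used.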

Additional observations from a re-analysis of the deposited data

Results flagged for a closer look

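Between injured tissues, 6 differences of a member passed the test of the difference itself. Batf was higher in skin than in bone (log2 fold change 2.03) and muscle (1.34), higher in heart than in bone (0.92), and lower in heart than in skin (-1.23). Fosl2 (2.10) and Junb (1.72) were higher in skin than in bone, but both of these calls were lost without the naming style term.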

How the results depend on the processing

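Against spleen, 17 of 39 pairs of a member and a tissue passed, 10 of them in every alternative, and 7 lost their call in at least 1; 11 others gained one. Between tissues 6 of 60 passed, 1 of them (Batf, skin against bone) in every alternative, 5 lost their call in at least 1 and 14 others gained one. No called member turned direction. The number of members called changed as follows, and the cause was not tested. How many of all genes were called in each setting, here and below, is not given. From the member counts alone, a general change in calls cannot be told apart from a change of the members. Without a filter on low counts it was 5 for bone against spleen, 7 each for muscle and skin against spleen, 8 for heart against spleen, 3 for muscle against bone, 5 for skin against bone, 4 for skin against muscle, 3 for heart against bone, 1 for heart against muscle and 3 for heart against skin. Within 1 naming style it was 4 for bone against spleen and 2 each for muscle against bone, heart against bone and heart against skin. Without spleen replicates 1 and 2 it was 5 for bone against spleen, 3 for heart against skin, and 2 each for muscle against bone and skin against muscle. DESeq2 called 1 in muscle against bone, 3 in skin against muscle, 2 in heart against bone and 1 in heart against muscle. In 1 fit to all 18 libraries muscle and skin against spleen had 7 each. Without a style term muscle against spleen had 7 and heart against skin 2, and with upper-quartile scaling skin against muscle had 0.

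Leaving out each replicate in turn gave 1 to 4 members for bone against spleen, 3 to 6 for muscle, 4 to 6 for skin and 3 to 5 for heart, 0 to 1 for muscle against bone, 0 to 2 for skin against muscle, 0 to 1 for heart against bone and for heart against skin, 3 for skin against bone, and 0 to 2 for the spleen styles. Shared replicate numbers gave little sign of pairing: of 18 pairs with the same number, 2 had a correlation of deviations above 0.1 (range -0.23 to 0.27). The Tregs-style spleen libraries were not part of that check, so a pairing with them was not tested. With the replicate block in place of the style, 6 members were called in muscle and 5 in skin against spleen, 6 in heart against spleen, 1 in skin against muscle, 0 in heart against muscle and 2 in heart against skin. With that block, Jun in muscle (log2 fold change -0.41, adjusted p = 0.15, edgeR) and Fos in skin (1.47, 0.056) did not pass against spleen, while Fos passed in muscle (1.60, 0.041) and heart (1.59, 0.013), Fosb in muscle (2.26, 0.049) and Maff in heart (1.25, 0.041). Fosl2 was at 4.71 in muscle and 4.83 in heart, and Junb at 2.11 and 2.14. Spleen replicates 4 to 6 share their numbers with no other group, so against spleen the block leaves Endo-style replicates 1 to 3 as the reference. Muscle is of the Tregs style and heart mostly so, and style and tissue cannot be told apart in these values. No bone comparison could be fitted with the block. Low counts limit Batf3, with 77 in all.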
